A study of Mus musculus with 5 samples.

Results

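Fibroblast growth factor (FGF) and epidermal growth factor (EGF) signalling genes were examined in dorsal pancreatic buds of mouse embryos with and without a working Ptf1a gene. Of 36 genes chosen by name, 33 had a probe set annotated to that gene alone, out of 18193 such genes and 45037 probe sets tested. Frs2, Etv1 and Areg were not analysed here. Where a gene had several probe sets, the one with the highest mean log2 signal over all arrays stood for it.

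Buds were taken at E10.5 (the embryonic day) from embryos of timed matings between adult Ptf1a heterozygotes, on the C57BL/6J strain per the labels. Both genotypes thus carry the mutant allele, on 1 chromosome in the heterozygotes that served as the reference and on both in the nulls. The labels do not say how the allele was made, so the part of Ptf1a that is lost cannot be stated. Surrounding mesenchyme was removed mechanically, 3 buds were pooled for each of 3 null and 2 heterozygote arrays, and the RNA went through 2 rounds of linear amplification.

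FGF ligands bind receptor tyrosine kinases of the Fgfr family together with heparan sulfate, and EGF family ligands bind the related Egfr and Erbb receptors. Both kinds of receptor act through adaptors on the RAS and ERK kinase cascade, which turns on its own inhibitors (Spry, Spred and Dusp genes) and ETS factors such as Etv4 and Etv5. In the pancreatic bud, Fgf10 from the mesenchyme acts on the Fgfr2 splice form of the epithelium and keeps the progenitors dividing.

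Ptf1a had normalised log2 signals of 7.10 and 7.33 in heterozygotes and of 5.21, 6.07 and 5.00 in nulls, so that all null arrays were lower, without passing the test (limma adjusted p = 0.651 in the untrended and 0.457 in the trended fit, both explained below). Each array's background level, read from 27 Bacillus subtilis controls, was 3.03 to 3.29, and 60.9% to 65.2% of probe sets exceeded it. Epithelial keratins and Pdx1, Sox9 and Foxa2 of the pancreatic bud were above background on all 5 arrays. Bud markers were lower in nulls at 5 of 6, among them Mnx1, with 7.31 and 7.30 in heterozygotes and 5.11, 4.36 and 4.41 in nulls (log2 difference -2.68, limma adjusted p = 0.369). All null arrays were lower at 3 of the 6 (50%, against 10.1% of all genes), while Sox9 (-0.07) and Foxa2 (-0.13) overlapped. The bud markers' summed linear signals were 2146 to 4414 in heterozygotes and 2984 to 3921 in nulls. These sums include Gcg, the 1 marker of the 6 with a higher mean in nulls (10.57 and 11.85 against 11.77, 11.50 and 11.34, log2 difference 0.33). Of 18 mesenchyme markers 15 were higher in nulls, and their summed linear signal was 2154 to 2621 in heterozygotes and 2524 to 3097 in nulls. Only 8 of the 18 were above background on all 5 arrays, and Twist1 and Thy1 were at or below it on every array. All null arrays were higher at 5 of the 18 (27.8%, against 9.82% of all genes). Vim, with the highest signal of the 18, overlapped with a log2 difference of 0.02. Of 6 epithelium markers 4 were higher in nulls, with a summed signal of 3575 to 4363 against 4576 to 5879. Krt8 and Krt18 had the highest signals of the 6 and weigh most in that sum. Krt8, Krt18 and Krt19 were higher in nulls without overlap at their brightest probe sets. Epcam (log2 difference 0.09), Cdh1 (-0.43) and Cldn6 (-0.23) overlapped. Red cell genes were lower in nulls at 4 of 4 markers, with 9368 to 11590 against 7860 to 8754. All null arrays were lower at 3 of the 4 (75%, against 10.1% of all genes). Hbb-y, with the highest signal of the 4, overlapped with a log2 difference of -0.06. Neural crest and glia genes were higher at 2 of 3, with 43.88 to 68.58 against 87.6 to 145.9. At their brightest probe sets, only Tfap2b had all null arrays higher (log2 difference 2.49). Sox10 (0.57) and Foxd3 (-0.44) overlapped. The dimmer Sox10 probe sets had lower means in nulls (-0.62 and -0.29), so the separate sums do not show a rise across this list. Because a bud is a mixture, fewer cells of a type and less RNA per cell cannot be told apart, and the part of these cell types in the values below was not tested.

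No member was called different between genotypes. The untrended limma fit called 0 of 33 members at an adjusted p under 0.05, against 0% of all probe sets. The trended fit, whose prior variance follows signal level, also called 0 members, against 0.0178% of all probe sets. At an unadjusted p under 0.05 the untrended fit had 2 members (6.06%, against 4.47% of all genes), and the trended one had 5 (15.2%, against 4.47% of all genes). The lowest adjusted p of a member was 0.394 in the first fit and 0.976 in the second.

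The groups did not overlap at 10 members. In 5 of them, Fgfr2, Fgfr3, Fgf2, Spry1 and Dusp4, all null arrays lay above both heterozygotes, which was 15.2% of members against 9.82% of all genes. In the other 5, Fgfr4, Fgf15, Dusp6, Erbb4 and Tgfa, all null arrays lay below, again 15.2% of members, against 10.1% of all genes. Of these 10 members, Fgf2 was above background on 1 of the 5 arrays, and Fgf15 and Erbb4 were above it on none. Over all 33 members 13 were higher and 20 lower in nulls, with a median log2 difference of -0.089 against -0.012 over all genes. The plot of genotype differences by role shows that the 95% confidence intervals, which are not adjusted for the number of probe sets, left out 0 only for Fgfr3 and Fgf2.

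**Figure D1:**
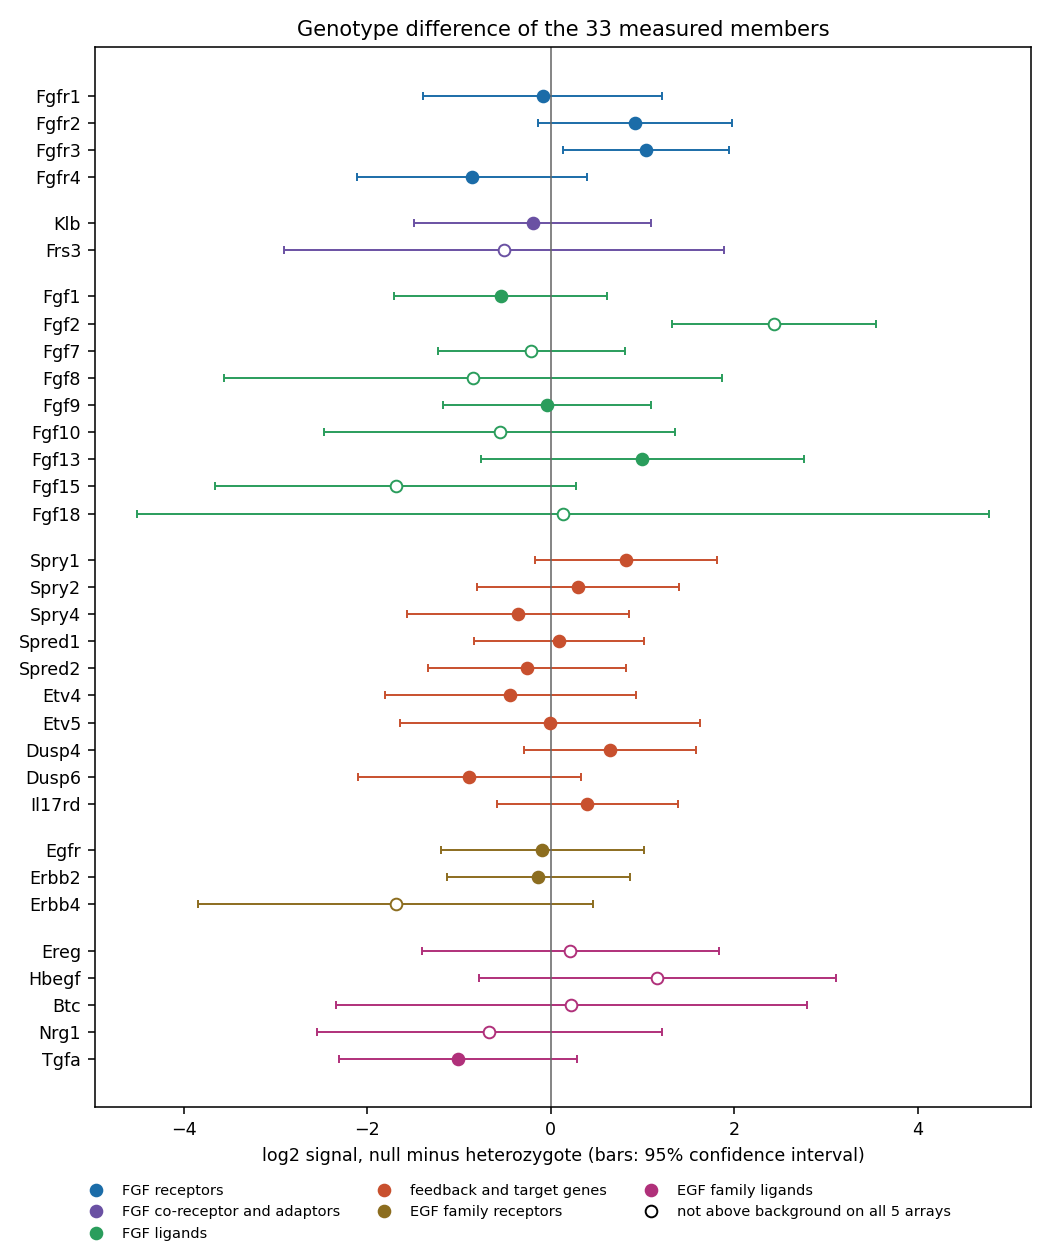
Difference in log2 signal, null minus heterozygote, for each of the 33 members, grouped and coloured by role. Bars are 95% confidence intervals from the untrended limma fit, and open circles mark members not above background on all 5 arrays. The points lie between -1.69 and 2.43, and 2 intervals, those of Fgfr3 and Fgf2, lie wholly on 1 side of 0.

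All 4 FGF receptor genes were above background on all 5 arrays, against 57% of all genes. The groups did not overlap at 3 of the 4 receptors, against 3618 of all 18193 genes, with Fgfr2 and Fgfr3 higher and Fgfr4 lower in nulls. Fgfr3, the receptor gene best known for its part in cartilage growth, had log2 signals of 5.40 and 5.44 in heterozygotes and 6.64, 6.23 and 6.49 in nulls. The null arrays were all higher, and the gap between the 2 heterozygotes was the smallest of any member. Means were 5.42 ± 0.03 (SD, n = 2) and 6.45 ± 0.21 (SD, n = 3), a 2.05-fold higher signal in nulls (log2 difference 1.03, SE 0.35, limma adjusted p = 0.833), with a 95% interval of 0.13 to 1.94. Its other, dimmer probe set gave 0.92 with all null arrays again higher.

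Fgfr2, which receives Fgf10, Fgf7 and Fgf1 signals in gut and pancreatic epithelium, had 6.65 and 5.85 in heterozygotes and 7.25, 7.27 and 6.99 in nulls. All null arrays were above both heterozygotes. The means were 6.25 ± 0.56 (SD, n = 2) and 7.17 ± 0.15 (SD, n = 3), or 1.89-fold higher in nulls (log2 difference 0.92, SE 0.41, limma adjusted p = 0.943). At its second brightest probe set the difference was 0.64, also without overlap. At the dimmest it was 1.48 with overlap, and since no heterozygote reached background only a bound holds there, at least 1.27-fold higher in nulls. These probe sets are not tied here to a splice form. Leaving out a heterozygote array moved the difference at the brightest probe set to 0.52 (replicate 2 left out) or 1.32 (replicate 1 left out).

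Fgfr4, a receptor of endoderm and liver, went the other way, with 5.13 and 5.81 in heterozygotes and 4.06, 4.71 and 5.07 in nulls. The highest null array was just below the lower heterozygote. The signal was 1.81-fold lower in nulls (log2 difference -0.86, SE 0.49, limma adjusted p = 0.986). The difference was -0.52 with heterozygote replicate 2 left out, -0.58 with null replicate 1 left out and -0.57 with an offset of 16. Its other 4 probe sets had overlapping groups, with differences of -0.13, -0.31 and -0.40 at 3 of them and 0.42 at the dimmest, and over all 5 probe sets the mean difference was -0.26.

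Fgfr1, the receptor of mesenchyme and many other tissues, had overlapping groups at its brightest probe set, with 5.81 and 6.11 in heterozygotes and 5.16, 6.04 and 6.41 in nulls (log2 difference -0.089, 95% interval -1.39 to 1.21). At its 2 dimmer probe sets, which were not above background on every array, the differences were 1.16 and 1.41, so its probe sets differed in sign.

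**Figure D2:**
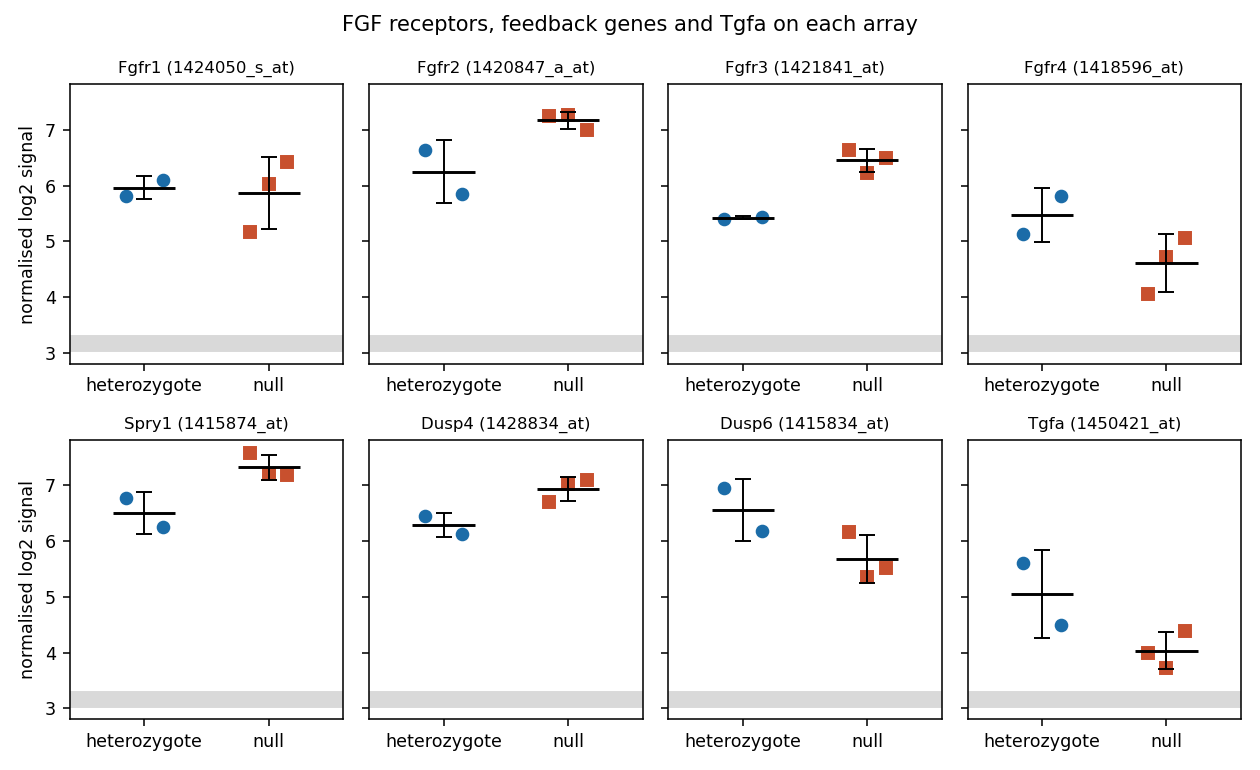
Normalised log2 signal on each array for the 4 FGF receptor genes, 3 feedback genes and Tgfa. Circles are heterozygote arrays and squares null arrays, black lines show the mean and SD of each genotype, and the grey band spans the background levels of 3.03 to 3.29. The 3 feedback genes and Tgfa are those of the feedback and EGF ligand lists whose genotypes did not overlap. The genotypes thus do not overlap in any panel except that of Fgfr1, whereas they overlapped at 23 of all 33 members.

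Promoter sequences are shown for Fgfr2, Fgfr3 and Fgfr4 because these receptor genes differed in direction and each window shown held a different motif. They are RefSeq windows of 300 bases on build GRCm38.p6, at chr7:130266759-130267058 on the minus strand for Fgfr2, chr5:33721474-33721773 on the plus strand for Fgfr3 and chr13:55152568-55152867 on the plus strand for Fgfr4. Each is written 5′ to 3′, with matches to 3 motifs in capitals. The motifs, searched on both strands, were the E-box hexamers CAGCTG and CACCTG that bHLH factors such as Ptf1a bind, TGGGAA of its partner RBPJ, and CCGGAA of ETS factors.
Fgfr2: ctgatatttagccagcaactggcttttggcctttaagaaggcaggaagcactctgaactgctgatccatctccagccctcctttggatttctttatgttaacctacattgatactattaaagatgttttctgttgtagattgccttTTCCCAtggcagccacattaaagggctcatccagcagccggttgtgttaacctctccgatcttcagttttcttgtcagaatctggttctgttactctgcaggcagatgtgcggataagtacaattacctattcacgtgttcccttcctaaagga
Fgfr3: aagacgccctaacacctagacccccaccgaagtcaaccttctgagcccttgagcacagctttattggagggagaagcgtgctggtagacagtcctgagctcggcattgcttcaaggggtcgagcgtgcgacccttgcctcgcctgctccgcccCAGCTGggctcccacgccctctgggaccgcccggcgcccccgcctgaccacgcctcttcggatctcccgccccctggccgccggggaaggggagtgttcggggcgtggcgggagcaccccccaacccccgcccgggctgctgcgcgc
Fgfr4: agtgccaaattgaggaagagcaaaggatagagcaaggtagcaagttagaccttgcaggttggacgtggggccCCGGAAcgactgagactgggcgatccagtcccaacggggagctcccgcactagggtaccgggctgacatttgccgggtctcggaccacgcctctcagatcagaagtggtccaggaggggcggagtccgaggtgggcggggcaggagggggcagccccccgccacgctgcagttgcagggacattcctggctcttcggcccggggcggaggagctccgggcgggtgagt

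The Fgfr3 window held CAGCTG, whose first base is at -97 from the gene's start. The Fgfr2 window held TTCCCA, the reverse complement of the RBPJ hexamer, at -104, and the Fgfr4 window held CCGGAA at -178. A second window of Fgfr3 held none of the 3. Windows were found for 23 of 33 members, 28 windows in all. An E-box was in 17.9% of them against 32.9% of all 32851 windows, the RBPJ hexamer in 17.9% against 25.6%, and the ETS hexamer in 14.3% against 14.9%. The matches describe the letters only, and no link between motif and direction was tested.

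Klb and Frs3 stand beside the receptors. Klb, the co-receptor for endocrine FGFs, had 5.72 and 6.76 in heterozygotes and 6.48, 5.88 and 5.76 in nulls, all within the heterozygote range (log2 difference -0.20, 95% interval -1.49 to 1.09). Frs3, an adaptor that couples Fgfr to the RAS cascade, had 3.73 and 3.38 against 3.42, 1.41 and 4.30, so null arrays lay on both sides of the heterozygotes.

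Of 9 genes measured from the FGF ligand list, 3 (Fgf1, Fgf9 and Fgf13) were above background on all 5 arrays. Fgf8 and Fgf15 were above it on none. The list includes Fgf13, which is not secreted. At 8 of the 9 the gap between the 2 heterozygotes was larger than the genotype difference. The list's median log2 difference, with Fgf13 included, was -0.21, with 3 higher and 6 lower in nulls.

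Fgf10, the mesenchymal ligand of the bud, had 4.99 and 3.24 in heterozygotes and 3.03, 4.39 and 3.27 in nulls. Null replicates 1 and 3 were close to the dimmer heterozygote, null replicate 2 lay between both, and 3 of 5 arrays were above background. The log2 difference was -0.56 with a 95% interval of -2.47 to 1.36, and it was 0.32 without heterozygote replicate 1. Fgf7, a second mesenchymal ligand of Fgfr2, had 3.06 and 3.62 against 2.91, 3.40 and 3.07, with overlap. At its dimmer probe set the values were 3.22 and 4.60 against 0.95, 2.97 and 2.26, all null arrays being lower and at or below background. The measured difference was -1.85, and against the background bound the signal was at least 1.75-fold higher in heterozygotes (limma adjusted p = 0.939).

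Fgf1, which binds all Fgf receptors, had 3.50 and 4.35 in heterozygotes and 3.24, 3.17 and 3.74 in nulls. One null array lay between the heterozygotes and the rest below them (log2 difference -0.54, 95% interval -1.70 to 0.62). All 3 of its probe sets were lower in nulls, at -0.54, -0.59 and -0.82. Fgf9, a ligand exchanged between epithelium and mesenchyme in gut and lung, had 6.03 and 5.25 against 5.42, 5.41 and 5.96, wholly within the heterozygote range (log2 difference -0.043, 95% interval -1.17 to 1.09).

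Fgf13, which belongs to the intracellular FGF homologous factors and is not secreted, had 7.23 and 5.32 in heterozygotes and 6.84, 7.47 and 7.51 in nulls. The groups overlapped through heterozygote replicate 1. The log2 difference was 1.00 (SE 0.68, limma adjusted p = 0.991). With heterozygote replicate 2 left out it was 0.044, and with replicate 1 left out 1.95. The dimmer probe set gave 1.23 with all null arrays higher and no heterozygote above background, a bound of at least 1.09-fold.

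Fgf2, the basic FGF made by many mesodermal tissues, had the lowest p of all members but lay at background. Its log2 signals were 0.17 and 0.67 in heterozygotes and 3.12, 2.38 and 3.06 in nulls. All null arrays were higher, yet 1 of the 5 arrays, null replicate 1, was above its background level. The difference was 2.43 (SE 0.43, limma adjusted p = 0.394), and it became -0.044 when every value was raised to at least the background level of its array, so no fold is given.

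Fgf15, a hormone-like FGF of the gut, had 0.56 and 2.82 against 0.18, -0.43 and 0.25, with all null arrays lower and all 5 arrays at or below background. Fgf8, an early patterning ligand, had 2.48 and 0.89 against 2.52, -0.45 and 0.45, also at or below background throughout. Fgf18, a ligand of lung and skeletal mesenchyme, had -1.47 and 3.38 against 0.46, 3.14 and -0.35, and the heterozygotes differed by 4.85.

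All 10 feedback and target genes analysed were above background on all 5 arrays. They split evenly, with 5 higher and 5 lower in nulls, a median log2 difference of 0.041 and a range of -0.89 to 0.82.

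Spry1, a sprouty inhibitor of receptor tyrosine kinase signalling, had 6.77 and 6.25 in heterozygotes and 7.59, 7.21 and 7.19 in nulls. All null arrays were higher. Means were 6.51 ± 0.37 (SD, n = 2) and 7.33 ± 0.22 (SD, n = 3), a 1.77-fold higher signal (log2 difference 0.82, SE 0.38, limma adjusted p = 0.956). Spry2, a related sprouty gene, had overlapping groups with 7.16 and 7.70 against 7.95, 7.96 and 7.29 (log2 difference 0.30, 95% interval -0.80 to 1.40). Spry4 had 5.14 and 4.08 against 4.01, 4.28 and 4.46, a difference of -0.36, and its second brightest probe set gave -0.97. Its 2 dimmest probe sets had higher means in nulls, but no heterozygote and only 1 null array was above background at either, so no size is given.

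The MAP kinase phosphatase genes Dusp4 and Dusp6 pointed in opposite directions. Dusp4, whose product acts in the nucleus, had 6.45 and 6.13 in heterozygotes and 6.69, 7.03 and 7.09 in nulls, all null arrays being higher. The signal was 1.57-fold higher (log2 difference 0.65, SE 0.36, limma adjusted p = 0.986). Dusp6, the ERK phosphatase of the cytoplasm that is widely used as a readout of FGF signalling, had 6.96 and 6.17 against 6.17, 5.36 and 5.51. All null arrays were lower, but null replicate 1 and heterozygote replicate 2 all but coincided. The signal was 1.85-fold lower (log2 difference -0.89, SE 0.47, limma adjusted p = 0.979), and the difference was -0.49 with heterozygote replicate 1 left out. Each gene has 1 probe set, and neither difference exceeded the error of this design after adjustment.

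The ETS factor genes Etv4 and Etv5 are direct targets of FGF signalling in many buds. Etv4 had 8.19 and 7.68 in heterozygotes and 6.79, 8.12 and 7.58 in nulls, with overlap (log2 difference -0.44, 95% interval -1.81 to 0.93). Etv5 had 6.46 and 4.80 against 5.93, 5.14 and 5.80, within the heterozygote range (log2 difference -0.012, 95% interval -1.65 to 1.62). At the second brightest Etv5 probe set all null arrays were lower, with a difference of -0.69. All 5 probe sets of the pair had lower means in nulls.

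Spred1 and Spred2, which hold back RAS and RAF activation, overlapped at their brightest probe sets. Spred1 had 7.47 and 7.93 against 7.88, 7.80 and 7.70, a difference of 0.094 with a 95% interval of -0.83 to 1.02. Its other 7 probe sets ranged from -0.89 to 0.28, and at 2 of these all null arrays were lower, with differences of -0.77 and -0.66. Spred2 had 8.20 and 8.99 against 8.56, 8.25 and 8.21, a difference of -0.25 (95% interval -1.33 to 0.82). At its second brightest probe set all null arrays were lower, with a difference of -1.20. Il17rd, also called Sef, a membrane inhibitor of FGF signalling, had 7.38 and 7.002 against 7.27, 7.77 and 7.74, with overlap (log2 difference 0.40, 95% interval -0.58 to 1.39), and -0.027 at its dimmer probe set.

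**Figure D3:**
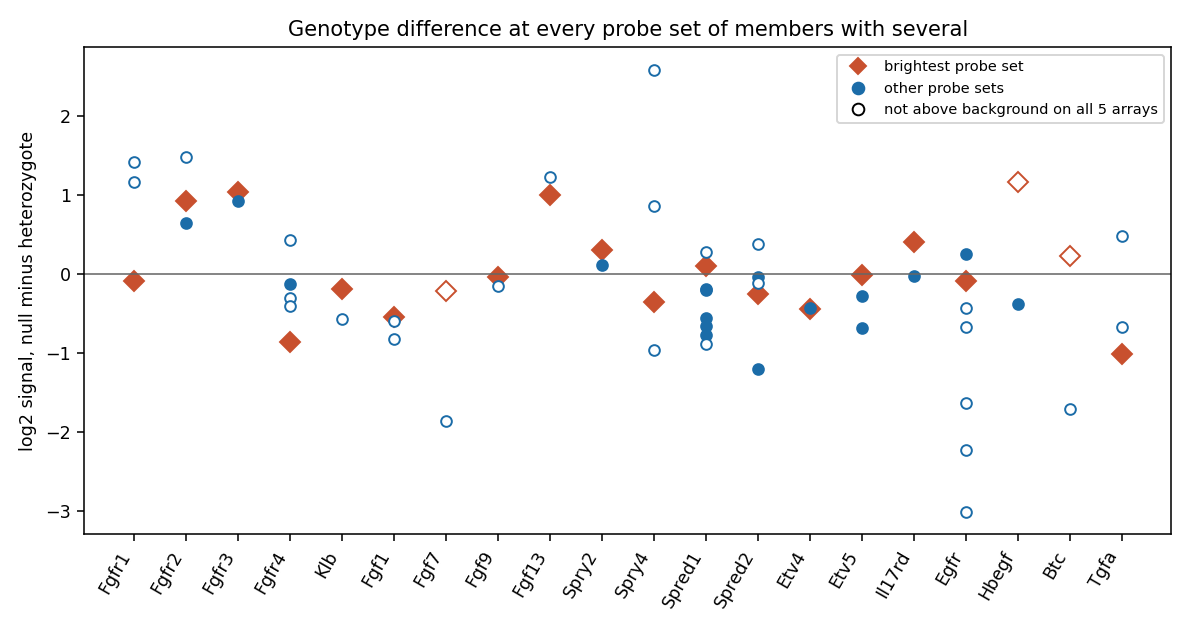
Difference in log2 signal, null minus heterozygote, at every probe set of the 20 members that have several. Diamonds mark the brightest probe set, circles the others, and open symbols those not above background on all 5 arrays. At 10 of the 20 the probe sets lie on both sides of 0, and both probe sets of Fgfr3 and all 3 of Fgfr2 lie above it.

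The EGF receptors gave no member with separate groups above background. Egfr had 4.58 and 4.96 in heterozygotes and 5.04, 4.81 and 4.20 in nulls, with overlap (log2 difference -0.089, 95% interval -1.20 to 1.02). Its other 6 probe sets ranged from -3.01 to 0.25. At one of these, above background in both heterozygotes and in no null, the values were 4.32 and 3.82 against 2.56, 0.50 and 2.45. The signal there was at least 1.95-fold higher in heterozygotes (measured difference -2.23, limma adjusted p = 0.843). Erbb2, which has no ligand of its own and pairs with the other receptors, had 3.47 and 3.51 against 3.12, 3.76 and 3.20 (log2 difference -0.13, 95% interval -1.13 to 0.86). Erbb4, a neuregulin receptor, had 2.38 and 0.08 against -1.20, -0.10 and -0.07, with all null arrays lower and all 5 arrays at or below background.

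Among EGF ligands, Tgfa, a ligand of Egfr, was above background on all 5 arrays. Its log2 signals were 5.61 and 4.49 in heterozygotes and 3.996, 3.72 and 4.39 in nulls. All null arrays were lower, the highest by a small margin. The signal was 2.02-fold lower in nulls (log2 difference -1.01, SE 0.50, limma adjusted p = 0.974), but the heterozygotes differed from each other by 1.12. The difference was -0.45 with heterozygote replicate 1 left out, -1.57 with replicate 2 left out and -0.62 with an offset of 16. Its dimmer probe sets gave 0.48 and -0.67 with overlap.

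Hbegf, a heparin-binding ligand of Egfr and Erbb4, had 2.95 and 4.99 in heterozygotes and 5.78, 4.91 and 4.72 in nulls, so heterozygote replicate 2 lay among the nulls. The difference of 1.16 became 0.14 with heterozygote replicate 1 left out and 2.18 with replicate 2 left out, and it was -0.38 at the dimmer probe set. Btc, betacellulin, had 1.31 and 3.77 against 1.98, 2.35 and 3.95, with overlap. At its dimmer probe set, at or below background on all 5 arrays, all null arrays were lower, with 2.54 and 2.72 against -1.64, 2.39 and 2.00. Nrg1, a neuregulin that acts through Erbb3 and Erbb4, had 3.10 and 3.42 against 3.27, 1.32 and 3.19, and Ereg, epiregulin, had 2.08 and 2.30 against 3.24, 2.53 and 1.44. The groups overlapped at both.

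The heterozygote pools often differed by more than the genotypes did. At 22 of 33 members (66.7%) the gap between the 2 heterozygotes was larger than the genotype difference, close to the 64.6% of all genes. The plot of genotype differences against that spread places Fgfr3 and Fgf2 farthest above the line of equality, with Fgf2 at background.

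**Figure D4:**
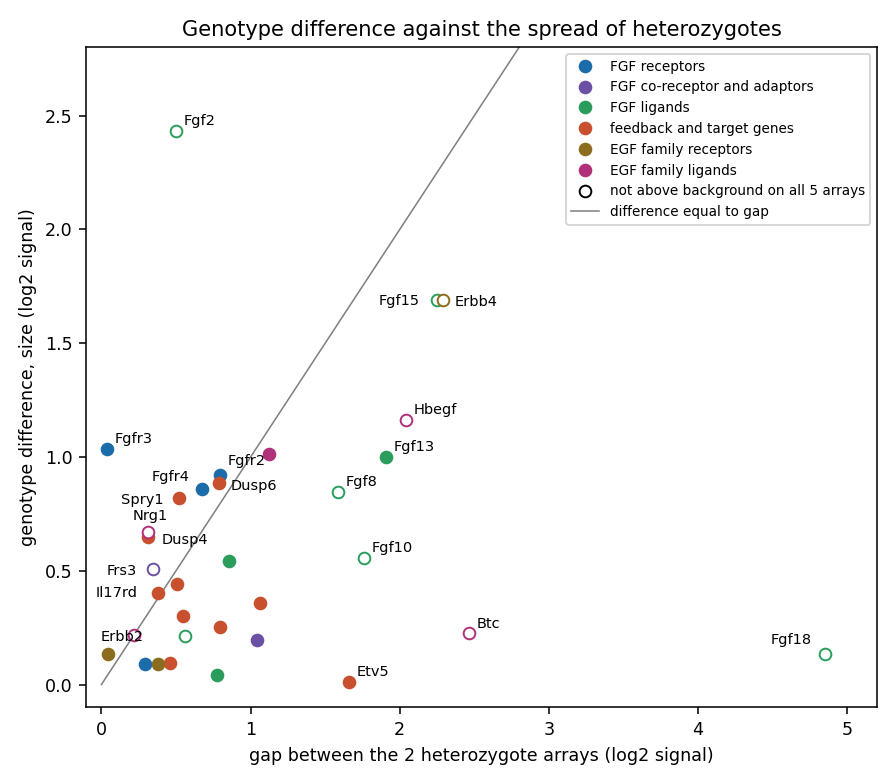
Size of the genotype difference (vertical) against the gap between the 2 heterozygote arrays (horizontal), both in log2 signal, for the 33 members, coloured by role. Open circles are members not above background on all 5 arrays. The 22 points below the line have a larger gap between heterozygotes than between genotypes, and Fgfr3 has a gap of 0.039 against a difference of 1.03.

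The wider pathway was read from a list of 68 further genes, of which 63 were measured. Neither limma fit called any of them (0 of 63 at an adjusted p under 0.05), and at an unadjusted p under 0.05 there were 2 (untrended, 3.17%) and 5 (trended, 7.94%), against 4.47% of all genes in each fit. Of the 63, 35 were higher (55.6%, against 49.1% of all genes) and 28 lower in nulls, with a median log2 difference of 0.013. All null arrays lay above both heterozygotes at 7.94% of the 63, against 9.82% of all genes. They lay below both at 11.1%, against 10.1% of all genes. In the RAS and MAP kinase cascade 12 of 18 were higher, with a median of 0.093, and 11.1% were without overlap in each direction. Other inhibitors and ERK-responsive genes were lower at 10 of 14, with a median of -0.37. At 4 of the 14 (28.6%) all null arrays were below both heterozygotes, against 10.1% of all genes. These were Dusp1, Dusp9, Myc and Ccnd1. Dusp1 and Myc were each above background on 3 of the 5 arrays. Dusp9 differed by -0.14, with overlap at its other probe sets. The list was not tested as a group.

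The 6 genes of the wider pathway with the lowest p were Fgf23, Fgf14, Shc1, Myc, Ccnd1 and Fgf5. Ccnd1, which encodes cyclin D1 of the G1 phase, had 10.06 and 10.09 in heterozygotes and 9.54, 9.58 and 9.38 in nulls, all lower, a 1.49-fold lower signal (log2 difference -0.57, SE 0.33, limma adjusted p = 0.991). Myc, a growth factor responsive transcription factor, had 4.72 and 5.32 against 4.12, -0.35 and 2.41, all null arrays being lower and null replicates 2 and 3 below background (log2 difference -2.96, adjusted p = 0.951). Shc1, an adaptor of receptor tyrosine kinases, had 4.95 and 3.52 against 5.35, 5.73 and 5.85, all null arrays being higher (log2 difference 1.41, adjusted p = 0.912), while its other probe set, above background on all 5 arrays, gave 0.02 with overlap. Fgf14, an intracellular FGF homologous factor like Fgf13, had 3.70 and 1.90 against 4.61, 4.38 and 4.97, all higher (log2 difference 1.85, adjusted p = 0.851). Its other 3 probe sets, none above background on all 5 arrays, had overlapping groups and lower means in nulls, at -0.50, -0.11 and -1.49. Fgf23 and Fgf5 were above background on 0 and 1 of the 5 arrays.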

How the data were processed

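The authors deposited 1 linear signal intensity per probe set and array for 45101 probe sets (Affymetrix Mouse Genome arrays). GCOS and RMA are named, without versions or roles, per the submitters' processing notes. How background was treated earlier is not stated. Array medians of the deposited intensities spanned 0.354 on the log2 scale, so log2 values (no offset added) were quantile normalised over the arrays. The 64 controls were not tested.

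Genotypes were compared across all 45037 remaining probe sets with limma 3.58.1 under R 4.3.3 (lmFit, eBayes). The model held genotype alone, and two-sided p-values were adjusted by the Benjamini-Hochberg method at 0.05. This is the untrended fit, and the trended fit lets the prior variance follow signal and is robust to outlying variances. An exact permutation test of 2 against 3 arrays cannot go below p = 0.1, so none is given. Both fits were also run on simulated normal noise with changes planted only in the brighter probe sets. That run required only estimates near the planted size, so it does not show how dim probe sets fare. Background on each array was the 95th percentile of the Bacillus subtilis controls. A genotype at or below it on all its arrays has a bound only.

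Gene symbols came from the platform annotation. All 33 members matched a current symbol by gene ID. Probe sets ending in _s_at, _x_at or _a_at can match several transcripts. The rule on named genes named all 36 members, with array values required for those whose groups do not overlap, those among the 8 lowest p-values and those whose probe sets differ in sign; array values of the other members were added. Of the wider pathway list, the 6 genes with the lowest untrended p are named, and Dusp1 and Dusp9 were added. Members and lists were chosen with earlier results of these data known. The labels describe separate pools but not their litters, and p-values therefore reflect pool-to-pool spread, which may be technical, while 5 arrays limit the precision. Promoter windows came from RefSeq. Alternatives were the trended fit, median centring, no normalisation, an offset of 16, values raised to background, dim probe sets left out (fewer than 2 arrays above background), a replicate block, each array left out, and the mean over a gene's probe sets.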

Additional observations from a re-analysis of the deposited data

How the results depend on the processing

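No member passed limma's adjusted threshold under any alternative fitted. Its lowest adjusted p over members ran from 0.373 (median centring) to 0.976 (trended fit). The trended fit called 5 probe sets higher and 3 lower over the whole array, none of them members. Of the 10 members without overlap, Fgf2 changed sign, at -0.044 with values raised to background, and the others with a value kept theirs. Fgf8, Fgf15 and Erbb4, at or below background throughout, had no value there.

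With no normalisation the median of all probe sets moved to -0.117, with median centring to -0.073. Not corrected for those shifts, the feedback gene median was -0.087 and -0.042, against 0.041 with quantile normalisation. Spred1 was -0.062 and -0.017, against 0.094, so both changed sign. Fgf18 was -0.103 both with an offset of 16 and with values raised to background, where Frs3 was 0.076, Ereg -0.0037 and Btc -0.0023. With dim probe sets left out, where Fgf2, Fgf8, Fgf15, Fgf18, Ereg and Erbb4 had no value, the EGF ligand median was -0.223.

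Averaging a gene's probe sets gave medians of -0.256 (all members), 0.902 (FGF receptors), -0.555 (FGF ligands), -0.030 (feedback genes), -1.12 (EGF receptors) and -0.398 (EGF ligands), with Fgfr1 at 0.826, Spry4 at 0.531, Spred1 at -0.361 and Btc at -0.744. The cause was not tested.

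Replicate numbers were checked for pairing. Deviations of same-numbered arrays correlated at -0.0167 and 0.00804. With 2 heterozygotes their deviations are exact opposites (correlation -1), and null replicate 3 has no partner. These values therefore cannot show whether same-numbered pools shared a litter or batch. The replicate block, which uses 2 null arrays, called 0 probe sets and gave medians of -0.183 (all members) and -0.371 (EGF ligands), Egfr at 0.153 and Btc at -0.371.

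Leaving out each array in turn gave medians of -0.0191 to 0.178 (feedback and target genes), -0.451 to 0.326 (EGF family ligands), -0.183 to 0.0577 (all members) and -0.332 to -0.0512 (EGF family receptors). Differences that changed sign ranged as follows, in log2: Fgf9 -0.431 to 0.346, Fgf10 -1.43 to 0.324, Fgf18 -2.29 to 2.56, Spry4 -0.888 to 0.176, Spred1 -0.137 to 0.325, Etv5 -0.842 to 0.818, Btc -1.01 to 1.46, Fgfr1 -0.36 to 0.266, Klb -0.717 to 0.325, Fgf7 -0.493 to 0.0702, Spred2 -0.653 to 0.144, Egfr -0.278 to 0.153, Ereg -0.205 to 0.698 and Frs3 -1.14 to 0.308. The number of arrays, with a heterozygote spread taken from 2, and background signal limit what could be detected.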
